A study of Oryza sativa with 239 samples.

Results

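Leaf messenger RNA was compared between irrigated and drought-treated plants of 10 rice cultivars of the World Rice Core collection, a core set that samples the diversity of Oryza sativa. The cultivars were WRC02, WRC25, WRC28, WRC31, WRC32, WRC33, WRC35, WRC36, WRC37 and WRC42, chosen by name as members of the aus group, to which WRC02, known as Kasalath, belongs. The labels themselves give no varietal group. Each cultivar had 3 control and 3 drought libraries, and 57 of these 60 libraries were used, 29 control and 28 drought, out of 239 libraries of 40 cultivars and lines in the whole series. The labels name no transgene or mutation in the groups of these 10 cultivars, which they tell apart by cultivar and water supply. The 29 others compared with them further on include, beside IR64, a line labelled Dro1-NIL. Dro1-NIL is counted there as a cultivar of its own.

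Germinated seeds were planted 1 to a pot in calcined clay watered with nutrient solution, in a growth chamber. Control plants stayed irrigated, and the drought pots were raised so that they drained. The youngest fully expanded leaf and the next older leaf were taken on day 5 of treatment, and polyadenylated RNA was sequenced with a strand-specific kit. The sample labels and the design note call the treatment moderate drought, while the protocol text speaks of a longer, severe drought with rewatering afterwards, so its severity is given here only as the labels have it. Whether each library came from a plant of its own is not stated in the labels, and p-values measure the spread between these libraries, part of which may be technical.

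Aus rices come from the rain-fed, short summer season of Bengal and neighbouring regions and are known as donors of tolerance to drought, heat and poor soils. In a drying soil the hormone abscisic acid rises in rice leaves, stomata close, protective proteins such as dehydrins are made, and photosynthesis genes often fall. The series was made to find marker genes from whose expression the perceived drought level can be predicted. The counted features were gene models with LOC_Os identifiers, which carry the chromosome number in their name. They were not paired here with symbols or functions, so genes are given by identifier and chromosome, without a role, and the lists of hormone, dehydrin, photosynthesis, aquaporin and cell type genes could not be matched to them.

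Before any comparison 3 libraries were set aside. WRC02 drought replicate 2 held 236927 reads and WRC28 drought replicate 3 held 386011 reads, both below the minimum of 1 M (mega) reads. WRC35 control replicate 3 lay midway between its own cultivar and WRC36: at 83 genes expressed in WRC35 but not WRC36 and 34 expressed in WRC36 but not WRC35, its level stood at a median of 50.4% of the way to WRC36. The control libraries used had a median depth of 15.8 M assigned reads (8.21 to 29.3 M), and the drought libraries one of 17.9 M (2.76 to 59.5 M). Drought libraries numbered 3 were the shallowest, with a median of 6.50 M reads against 24.0 M for those numbered 1. Control and drought libraries also belong to separate series of library names, C and D, and a difference between these series cannot be told apart from drought. Within their own group, drought libraries varied more than control libraries: the median SD of the log2 differences to the other libraries of the group, over 14449 genes, ranged from 0.48 to 1.03 under drought and from 0.32 to 0.77 under control. WRC32 drought replicate 2 and WRC37 drought replicate 2, at 1.03 and 0.94, stood farthest from their groups.

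The 10 cultivars resembled each other more than they resembled IR64 or Koshihikari. The 1500 genes used had the largest variance between cultivars relative to that within cultivars under irrigation. Across them, each of the 10 had a median correlation with the other 9 between 0.47 for WRC42 and 0.65 for WRC31. Against IR64 (an indica variety) the same correlations ran from 0.32 to 0.44, and against Koshihikari (a temperate japonica) from 0.17 to 0.27. Nearest pairs were WRC32 with WRC33 at 0.80, WRC02 with WRC35 at 0.76 and WRC31 with WRC32 at 0.73. The set is not closed, since WRC28 correlated most with WRC27, which is outside it, at 0.83, against at most 0.57 with any of the 9. WRC04, also outside, came next to WRC28 with 0.67. WRC25 too was slightly closer to cultivars outside, WRC34 at 0.616 and WRC04 at 0.61, than to any of the 9, at most 0.604. With WRC27 and WRC34 set aside, WRC04 was the nearest outside cultivar to each of the 10, from 0.46 for WRC42 to 0.67 for WRC28. The remaining cultivars of the set correlated most within it, though WRC33 reached 0.76 with WRC34. These are correlations across genes, which are not independent replicates, and serve as a description only.

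In a model with a term for cultivar, drought changed 379 of 24832 tested gene models (1.53%) by a fold of at least 2 at an adjusted p below 0.05 (edgeR quasi-likelihood test with Benjamini-Hochberg adjustment over all tested genes). Of these, 141 were higher (0.568% of those tested) and 238 lower (0.958%) under drought. Changes were mostly modest, with a median of 1.27 (log2) for the higher and -1.39 for the lower genes, and 35 genes changed by a fold of 4 or more. The median over all tested genes was 0.02. Without the fold minimum 3472 genes passed (14% of those tested), 1775 higher (7.15%) and 1697 lower (6.83%), so most of the response in these leaves was below a fold of 2. In leaf tissue measured in bulk, fewer cells of a type and less RNA per cell cannot be told apart.

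Many called genes were weakly expressed or expressed in some of the cultivars only. Of the 379, 177 had a mean below 1 CPM (counts per mega-read of the library, after scaling for library composition) over the 57 libraries, 91 a mean of 1 to 5 CPM, and the rest at least 5 CPM, 28 of them at least 50 CPM. Among the 141 higher genes 24 reached 1 CPM in all 10 cultivars (17.02%, against 65.05% of all tested genes), 53 reached it in none, and 41 had no read in any library of at least 1 cultivar. Of the lower genes, 29.08% outside the runs described further on and 55.67% inside them reached 1 CPM in all 10 cultivars. Of the 35 changes of a fold of 4 or more, 21 were higher and 14 lower. Most of the 14 lower genes had a mean below 1 CPM, and LOC_Os04g16745 alone, at 170 CPM, exceeded 5 CPM. The steepest fall, -3.58 (log2), was at a gene with a mean of 0.864 CPM. It ran from -10.82 in WRC02 to 1.45 in WRC25, and 6 of 10 cultivars were lower. All 10 cultivars moved in the same direction at 68 of the 379 genes and 9 of 10 at a further 125. At least 9 of 10 agreed in direction at 50.9% of the called genes and at 14.1% of all tested genes; the same contrast chose the called genes, so the first share is a description. The control and drought libraries of a cultivar seldom separated completely. At the median called higher gene they did so in 2 of 10 cultivars, against 1 of 10 at the median tested gene. At the median called lower gene they did so in 3 of 10, both in the runs and outside them.

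The count of 379 depended on the replicate numbers used. It fell to 140, 82 higher and 58 lower, without libraries numbered 3, the shallowest under drought. Without those numbered 1 it was 186, and without those numbered 2 it was 347. In libraries numbered 3 alone it was 339, of which 159 were among the 379. Libraries numbered 1 and 2 alone gave 11 and 0. The part played by depth was not tested.

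Among genes with a mean of at least 5 CPM that moved alike in at least 9 cultivars, LOC_Os02g53130 on chromosome 2 rose most. Its control libraries held 0.424 to 110.96 CPM with a median of 27.6, and its drought libraries 6.32 to 241.5 CPM with a median of 105.7. The groups as a whole overlapped, and they also did so among the cultivars other than WRC28, which carried far less of this transcript. Within WRC02, WRC32, WRC33 and WRC37 the libraries overlapped too. In the remaining 6 cultivars every drought library lay above every control library. WRC28 rose from 1.68, 0.424 and 3.01 CPM under control to 6.32 and 6.42 CPM under drought. WRC31 rose most, from 32.03, 41.3 and 13.8 CPM to 241.5, 113.5 and 114.9 CPM. In WRC02 the libraries overlapped, at 65.2, 54.5 and 27.6 CPM under control and 85.9 and 55.2 CPM under drought. The log2 fold change over the 10 cultivars was 1.67 (SE 0.24, edgeR adjusted p = 8.31e-06), with all 10 cultivars higher, from 0.53 in WRC02 to 2.43 in WRC31.

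The second riser, LOC_Os01g47370 on chromosome 1, was less even. Its control libraries ran from 0 to 27.3 CPM with a median of 2.55, its drought libraries from 0.140 to 77.7 CPM with a median of 8.72, and the groups overlapped in 9 of the 10 cultivars. The log2 fold change was 1.66 (SE 0.47, edgeR adjusted p = 0.0132). WRC42 climbed from 1.96, 7.69 and 2.55 CPM to 14.4, 69.2 and 42.3 CPM, whereas the mean of WRC37 was 13.3 CPM under control and 7.49 CPM under drought. The call was lost without WRC42 (adjusted p = 0.06), without replicates numbered 2 (0.101) and without those numbered 3 (0.371, log2 fold change 0.93). It was also lost with a block for each cultivar's same-numbered libraries (0.0676) and on counts summed per cultivar (0.0956).

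The steepest falls by the same rule, LOC_Os04g16745 on chromosome 4 and LOC_Os01g57962 on chromosome 1, both lay in the runs of neighbouring identifiers described further on. LOC_Os04g16745 had control libraries of 1.03 to 929.6 CPM with a median of 203.6, and drought libraries of 0.337 to 538 CPM with a median of 7.79. Its log2 fold change was -2.33 (SE 0.66, edgeR adjusted p = 0.0139), with 9 of 10 cultivars lower and the 2 groups of libraries apart in 4 cultivars. LOC_Os01g57962 fell by 1.94 on the log2 scale (SE 0.55, adjusted p = 0.0136). Both calls were lost without replicates numbered 3, at adjusted p values of 0.144 and 0.104, with log2 fold changes of -2.18 and -1.97 that were about as large. On counts summed per cultivar they were lost as well, at 0.0505 and 0.0535.

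Outside the runs a pair of falling genes was picked by the same criteria after the values had been seen. LOC_Os09g12290 on chromosome 9, an abundant transcript, had control libraries of 72.1 to 878 CPM with a median of 374 and drought libraries of 13.3 to 674 CPM with a median of 91.6. In 6 cultivars every drought library lay below every control library. WRC42 fell most, from 243, 177.5 and 298 CPM to 34.8, 77.2 and 13.3 CPM. WRC35 overlapped, with 98.8 and 151 CPM under control and 92.5, 74.2 and 169.5 CPM under drought. All 10 cultivars were lower, by -2.52 (WRC42) to -0.16 (WRC35) on the log2 scale, and the pooled value was -1.63 (SE 0.26, edgeR adjusted p = 3.24e-05).

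LOC_Os04g59200 on chromosome 4 fell by 1.79 on the log2 scale (SE 0.35, edgeR adjusted p = 0.000665), from a control range of 0 to 79.2 CPM with a median of 3.72 to a drought range of 0 to 11.5 CPM with a median of 1.34. It was a gene with large differences between cultivars. WRC25 had no read of it in any library, and WRC35 dropped from 19.9 and 79.2 CPM to 3.19, 4.38 and 0.719 CPM. In the fit of all 40 cultivars together its value for the 10 stayed at -1.67 while its adjusted p became 1.

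**Figure D1:**
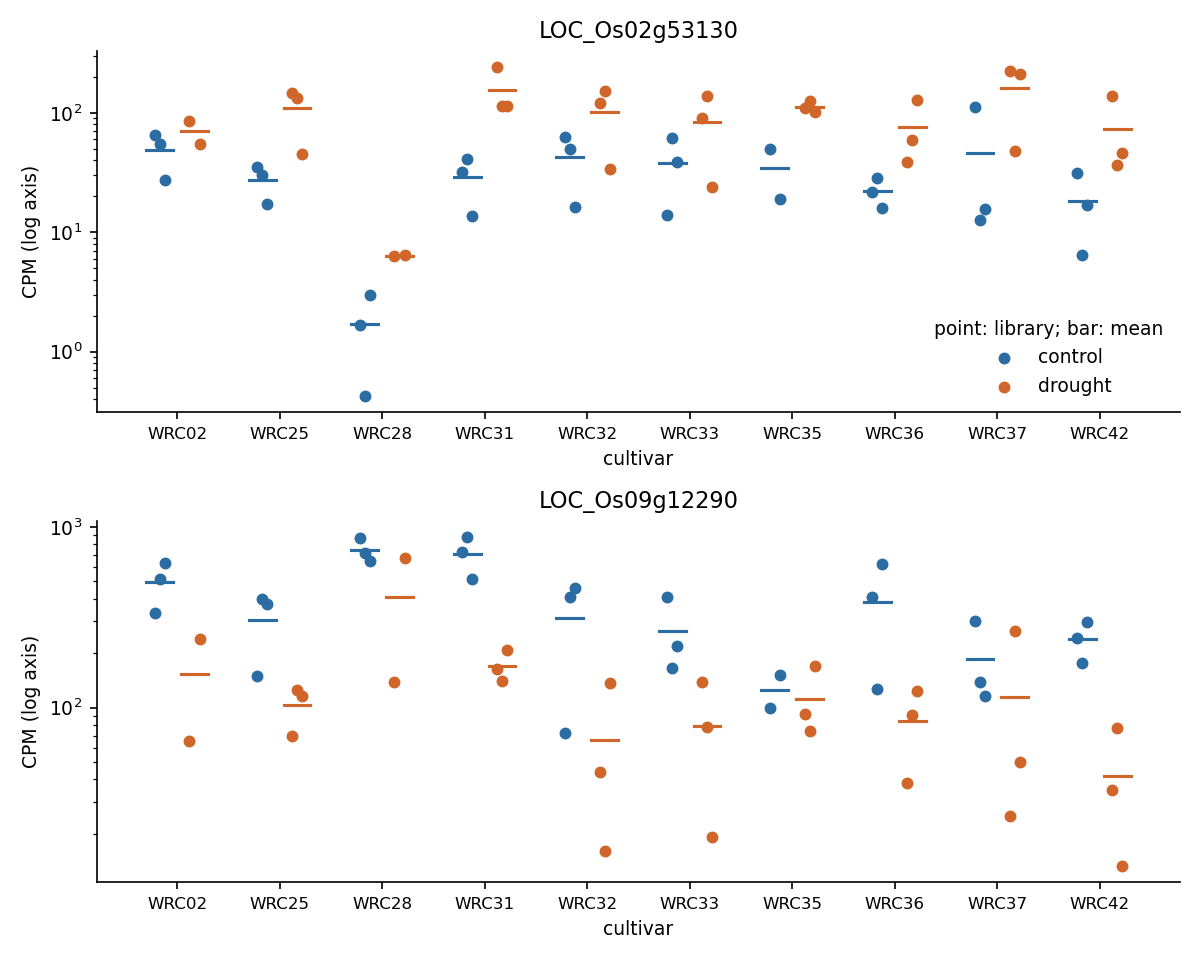
Levels of LOC_Os02g53130 (top) and LOC_Os09g12290 (bottom) in CPM on log axes for the 10 cultivars on the x axis. Each point is a library, blue for control and orange for drought, and each bar is the mean of a group. The drought mean is above the control mean in all 10 cultivars for the first gene and below it in all 10 for the second, with the lowest levels of LOC_Os02g53130 in WRC28 and the smallest fall of LOC_Os09g12290 in WRC35.

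A large share of the lower genes were neighbours. A run was taken as at least 3 called identifiers of the same direction, each within 5 tested identifiers of the next. This rule was set after the values were seen. By it, 97 of the 238 lower genes (40.8%) fell into 12 runs. The 141 higher genes, searched separately, formed 0 runs. The longest were LOC_Os04g16380 to LOC_Os04g16876 on chromosome 4, with 22 of its 44 tested identifiers called lower, and LOC_Os10g21192 to LOC_Os10g21326 on chromosome 10, with 20 of 31. Another on chromosome 10, from LOC_Os10g21366 to LOC_Os10g21418, had all 8 of its tested identifiers called. The remaining runs lay on chromosomes 1, 2, 6, 8, 9, 10 and 12. The calls in these identifiers rested on some of the libraries: of the 97, the number of lower calls among them was 1 without replicates numbered 3, 21 without WRC32 and 27 without WRC33. Chromosome 10 held 44 of the 238 lower genes (18.5%) but 5.47% of the tested genes, and without the runs it held 10 of 141 (7.09%).

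Counts in the runs need care. Rice chromosomes carry inserted stretches of plastid DNA, whose gene models can be nearly identical to the plastid genes and to each other, and such genes can share reads. The files do not annotate which identifiers lie in such stretches, and the strand setting and the treatment of reads with several positions are not given in the sources used here, so the identifiers in runs are uncertain as single genes. In these libraries they behaved almost as a single measurement. The median correlation between a pair of them over the 57 libraries was 0.85 on log2 CPM. It was 0.22 between lower genes outside the runs and 0.31 between higher genes. The sets also differed in level. A mean below 1 CPM was found at 22 of the 97 identifiers, 71 of the 141 lower genes outside the runs and 84 of the 141 higher genes. The part played by level in these correlations was not tested.

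The summed level of the 97 identifiers, scaled over 39 cultivars, ran from 93.7 to 14470 CPM under control with a median of 4761, and from 82.6 to 11080 CPM under drought with a median of 434. Both treatments thus spanned 2 orders of magnitude, and in 6 of the 10 cultivars the groups overlapped. WRC32 stood apart most, with 2815 to 5931 CPM in its control libraries and 82.6, 102.5 and 113.7 CPM under drought. In WRC33 the control libraries held 5368, 4993 and 7495 CPM, and the drought libraries 153, 233 and 2567 CPM. WRC25 showed no such difference: its control libraries held 1390, 93.7 and 4092 CPM and its drought libraries 1766, 130 and 3250 CPM. The mean log2 difference over the 10 cultivars was -2.18 ± 1.65 (SD, n = 10 cultivars), lower in 9 of 10, and carries no test because the same contrast chose the identifiers. In the 29 other cultivars, which did not enter the choice, it was -0.72 ± 1.51 (SD, n = 29), lower in 18 of 29. With the 97 identifiers left out, 276 genes were called (1.12% of 24735), 132 higher (0.534%) and 144 lower (0.582%). With the level of the runs as a covariate as well, 202 were called (0.817%), 90 of them higher. The rule for runs takes in neighbours only, and lower genes outside them could change much alike. LOC_Os11g32770, outside the runs and picked after its values were seen, had -5.46 in WRC32, -2.75 in WRC33 and 0.46 in WRC28 (log2). LOC_Os10g21236, in a run, had -5.77, -2.88 and 0.42. How many genes outside the runs did so was not tested.

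**Figure D2:**
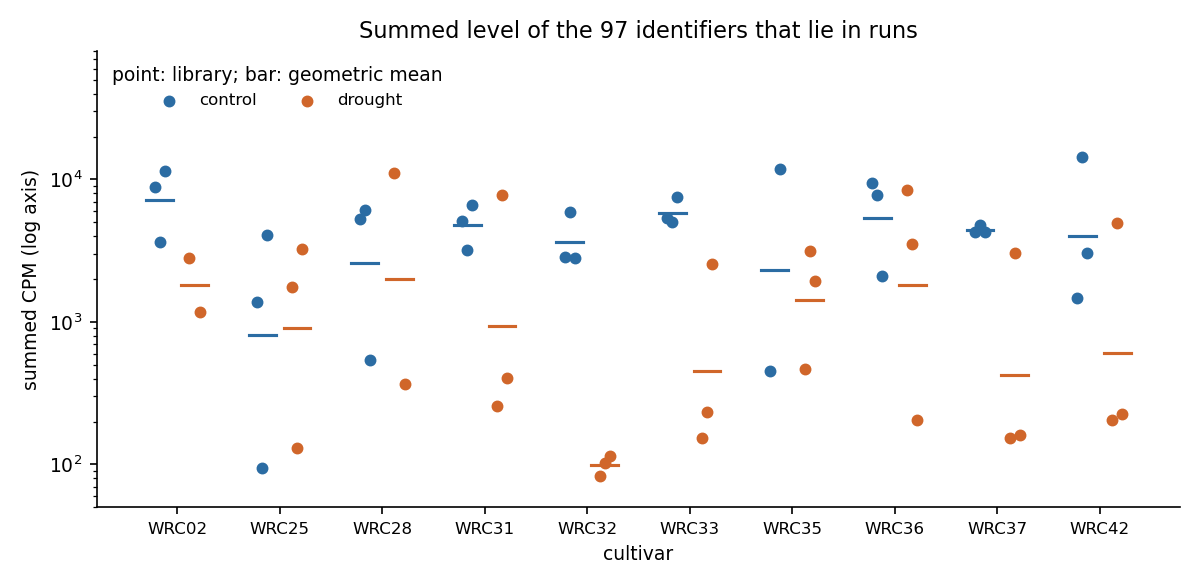
Summed level of the 97 lower identifiers that lie in runs, in CPM on a log axis, for each library (points, blue for control and orange for drought) and the geometric mean of each group (bars) in the 10 cultivars on the x axis. Control libraries range from 93.7 to 14470 CPM and drought libraries from 82.6 to 11080 CPM. The groups do not overlap in WRC02, WRC32, WRC33 and WRC37, and in WRC25 the drought mean is not below the control mean.

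To read the response of each cultivar with genes that these libraries did not select, a drought score was formed from 50 genes chosen in 29 other cultivars, 33 of them higher and 17 lower there. The score is the mean log2 CPM of the 33 minus that of the 17, so that it rises under drought where the genes respond as they did in the other cultivars. Of the 50, 0 lay in the runs. In the 10 cultivars all 50 had the same sign as in the 29, where 73.3% of all tested genes did, and 46 of the 50 passed an adjusted p of 0.05 in edgeR, where 14.0% of all tested genes did. The changes were small, with a median size of 0.44 (log2) in the 29 and 0.35 in the 10. The fold of 2 was passed in the 10 cultivars by 2 of them, picked out here after their values were seen: LOC_Os04g16826 on chromosome 4, higher by 1.34, and LOC_Os02g17330 on chromosome 2, lower with -1.06 (log2). The former is numbered within the longest run but was not part of it, as it was higher under drought.

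Control libraries scored from -2.02 to -0.75 with a median of -1.32, and drought libraries from -0.96 to 0.41 with a median of -0.53. Within a cultivar, every drought library scored above every control library in 9 of 10 cultivars. The exception was WRC33, where a drought library at -0.80 lay below a control library at -0.75. The largest difference was that of WRC42, whose control libraries scored -2.02, -1.34 and -2.01 and its drought libraries -0.55, -0.05 and -0.95, a difference of 1.28 (SE 0.34). Next came WRC28 with 1.12 (SE 0.15). The smallest was that of WRC35 at 0.53 (SE 0.39), whose 3 drought libraries agreed within 0.02 while its 2 control libraries, at -1.55 and -0.78, did not. The difference between these cultivars was not tested. Over the cultivars the difference was 0.82 ± 0.23 (SD, n = 10), above 0 in 10 of 10, with an exact two-sided sign-flip permutation p of 0.00195, the smallest that 10 cultivars allow.

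By library number the score difference held in each set: 0.70 ± 0.43 (SD, n = 10 cultivars) in libraries numbered 1, 0.92 ± 0.37 (n = 9) in those numbered 2 and 0.87 ± 0.28 (n = 8) in those numbered 3, above 0 in every cultivar of each set. When the genes were chosen anew for each of 39 cultivars without its own libraries (an addition made after the data were seen), the score difference averaged 0.89 ± 0.21 (SD) over the 10 and 0.95 ± 0.28 (SD) over the 29 others. The difference of -0.06 gave a two-sided permutation p of 0.559 with 100000 shuffles of group membership. In that ordering WRC42 ranked 2 of 39 with 1.31, and WRC35 and WRC02 ranked 35 and 34 with 0.61 and 0.63. Among cultivars outside the set, WRC34 had 1.11, WRC27 1.03 and WRC04 0.79.

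**Figure D3:**
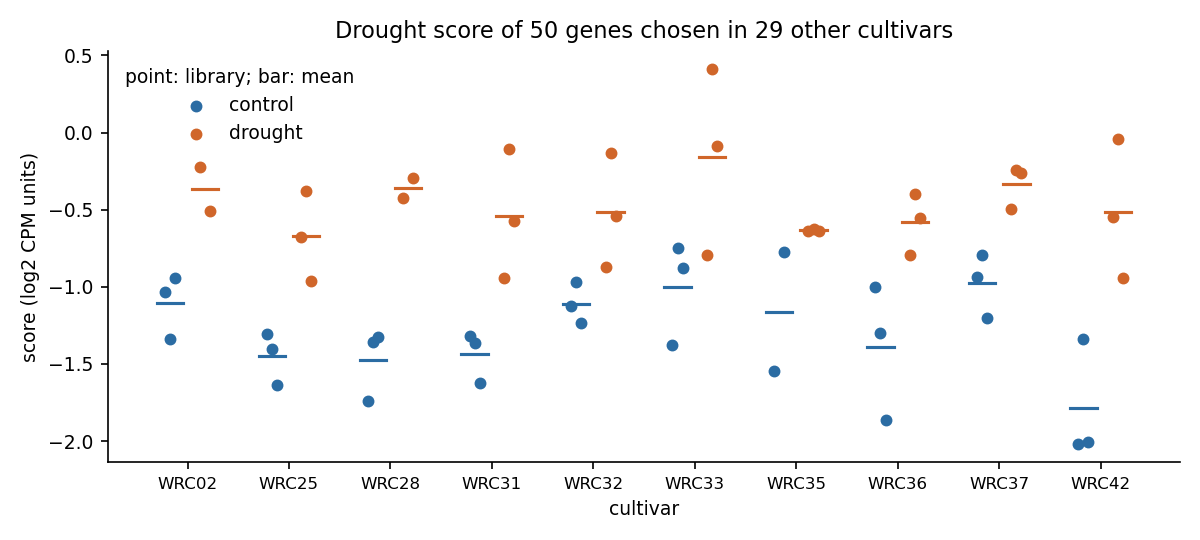
Drought score in log2 CPM units for each library (points, blue for control and orange for drought) and the mean of each group (bars) in the 10 cultivars on the x axis. Control libraries lie between -2.02 and -0.75 and drought libraries between -0.96 and 0.41, and the groups overlap in WRC33 alone.

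The same question was put gene by gene, on counts summed per cultivar and treatment, with the cultivar as the unit. In that fit 312 of 22498 genes were called in the 10 cultivars (1.39%), 89 higher (0.396%) and 223 lower (0.991%), and 259 in the 29 others (1.15%), of which 146 were lower (0.649% of those tested) and the rest higher (0.502%). The lists shared 37 higher genes, 41.6% of those of the 10 and 32.7% of those of the 29. They shared 66 lower genes, 29.6% and 45.2% of the lists, and no gene was called in opposite directions. Runs made up 87 of the 223 lower genes of the 10 and 7 of the 146 of the 29.

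Genes called in the 29 cultivars and outside the runs kept their sign in the 10 at 247 of 252 genes (98.02%), where 76.1% of all tested genes had the same sign in both. Their median log2 fold changes were 1.23 in the 29 and 0.91 in the 10 for the higher genes, and -1.23 and -1.02 for the 139 lower genes; the genes were chosen in the 29, which favours larger values there.

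**Figure D4:**
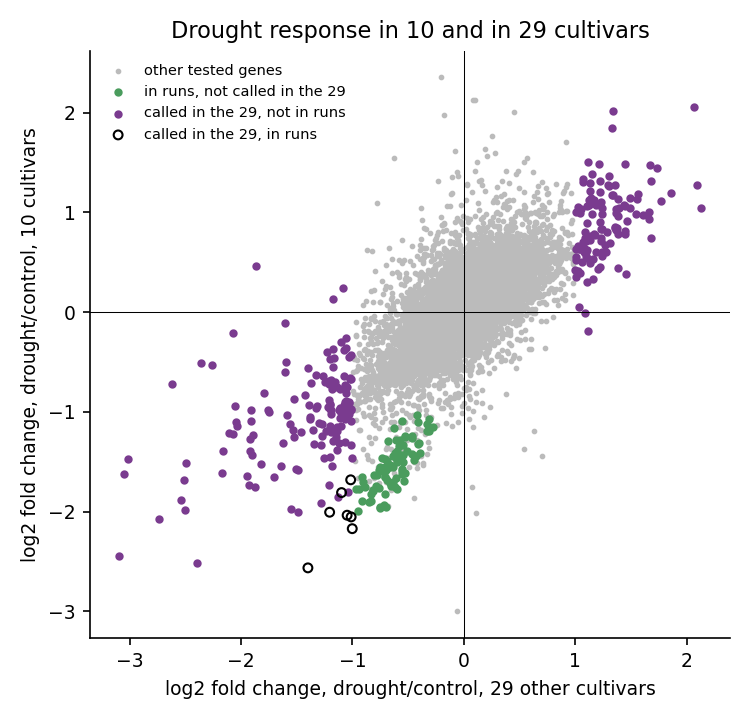
Log2 fold change of drought over control in the 29 other cultivars (x axis) and in the 10 cultivars (y axis) for 22498 tested genes (grey). Purple points were called in the 29 and lie outside the runs, open circles were called there and lie in the runs, and green points lie in the runs without a call in the 29. Of the 252 purple points, 247 have the same sign on both axes, and the green points lie below -1 on the y axis with smaller falls on the x axis.

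No gene's response differed between the 10 and the 29 other cultivars at an adjusted p below 0.05 (0 of 22498 in edgeR, lowest adjusted p 0.495). At an unadjusted p below 0.05 there were 1684, where chance gives 1125. At 14485 genes with a mean of at least 5 CPM, the 95% interval of the difference reached a median of 0.17 (log2) either way. That is narrow beside the fold of 2 asked for, but it describes the median gene. Genes called over the 10 cultivars could have wider intervals that hold a fold of 2. Examples are -2.74 to 0.41 for LOC_Os04g16745 and -1.31 to 0.58 for LOC_Os01g47370. LOC_Os02g53130 rose by 1.70 (SE 0.27, log2) in the 10 and by 0.91 (SE 0.16) in the 29, a difference of 0.79 with an interval of 0.18 to 1.41 and an adjusted p of 0.597. LOC_Os09g12290 fell in both, with -1.75 (SE 0.31) and -1.88 (SE 0.19), and its difference of 0.12 had an interval of -0.60 to 0.85.

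The identifiers with the largest differences, at a mean of at least 5 CPM over the 39 cultivars, also missed the threshold. LOC_Os02g04760 on chromosome 2, weakly expressed in the 10 cultivars, held 0 to 0.304 CPM in their control libraries and 0 to 3.36 CPM in their drought libraries, with a higher mean under drought in 9 of 10. Its mean over the libraries of the 10 was 0.203 CPM, so it met the minimum through the 29 others. LOC_Os02g04760 rose by 2.13 (log2) in the 10, on few reads, and by 0.105 in the 29. Its difference was 2.03 with an interval of 1.18 to 2.87 and an edgeR adjusted p of 0.495. LOC_Os12g43410 on chromosome 12 had -0.51 in the 10 and -2.36 in the 29 on the log2 scale, a difference of 1.85 with an interval of -0.21 to 3.92 and an edgeR adjusted p of 0.688. LOC_Os04g16734 on chromosome 4 and LOC_Os12g10580 on chromosome 12, both in runs, had -1.95 and -1.93 in the 10 and -0.70 and -0.71 in the 29. Their differences of -1.25 and -1.22 had adjusted p values of 0.679 and 0.696.

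Single cultivars gave few calls. With the spread shared by the 10 cultivars, edgeR called 10 genes in WRC02 (0.0403% of 24832), 2 higher (0.00805%) and 8 lower (0.0322%). It called 3 in WRC42 (0.0121%), 1 higher (0.00403%) and 2 lower (0.00805%), a lower gene in WRC35 (0.00403%), and 0 in each of the other 7. The counts at an unadjusted p below 0.05 ran from 913 in WRC28 to 3306 in WRC32, where chance gives 1242. WRC42 (3249), WRC32 and WRC02 (2842) lay highest, and WRC28 and WRC25 (1075) below that level. DESeq2 fitted to each cultivar alone called from 0 genes in WRC37 to 478 in WRC42, and 43 to 186 in the other 8.

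In WRC02, LOC_Os09g38020 on chromosome 9 rose from 31.4, 45.4 and 46.8 CPM to 97.4 and 96.6 CPM, a log2 fold change of 1.24 (SE 0.25, adjusted p = 0.0419). The libraries were well apart there, while the same gene in WRC37 had a log2 fold change of -0.29. LOC_Os02g36210 on chromosome 2 was called lower in WRC02 (adjusted p = 0.0419), with 149, 0 and 36.9 CPM under control and 0 reads in both drought libraries. Against a floor of 3 reads over the drought libraries its control mean of 61.9 CPM was at least 548-fold higher, but a control library also held no read of it, so the groups overlapped. The calls in WRC02 rested on single libraries. Without its control replicate 1 there were 0, and 10.5 times as many without WRC37 drought replicate 2, a library of another cultivar that entered through the shared spread. Leaving out all libraries numbered 1, 2 or 3 gave 0, 859 and 1.

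In WRC35, LOC_Os08g10300 on chromosome 8 fell from 39.8 and 77.3 CPM to 16.01, 7.96 and 15.6 CPM, with a log2 fold change of -2.13 (SE 0.36, edgeR adjusted p = 0.0168). Its groups did not overlap. In WRC42, LOC_Os07g48420 on chromosome 7 fell from 26.9, 22.8 and 22.1 CPM to 6.95, 9.30 and 8.75 CPM, with a log2 fold change of -1.53 (SE 0.30, adjusted p = 0.041). The same gene had a negative log2 fold change in all 10 cultivars, as small as -0.27 in WRC35. Neither WRC35 nor WRC42 kept a call when the libraries of any 1 of the 3 replicate numbers were left out. WRC37 had 0 calls with all its libraries and 53 without its drought replicate 2, which stood far from its group.

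No gene's response differed among the 10 cultivars (0 of 24832 at an adjusted p of 0.05 in edgeR's test of the 9 contrasts together). At an unadjusted p below 0.05 there were 1729, where chance gives 1242. That absence did not hold without replicates numbered 2, where 190 genes passed the adjusted threshold, or with no filter on low counts, where 12 did. LOC_Os08g10300 had the lowest p, 2.71e-05 (adjusted p = 0.413), with log2 fold changes from -2.13 in WRC35 to 0.31 in WRC36. LOC_Os02g41500 on chromosome 2 came next with 4.98e-05 (adjusted p = 0.413), from -0.57 in WRC36 to 0.95 in WRC35.

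How far each cultivar followed the rest was read from the genes called in the other 9 without its libraries, outside the runs and with a mean of at least 5 CPM. WRC36 had the same direction at 52 of 53 such genes, WRC33 at 53 of 55 and WRC31 at 48 of 50. The share over all genes of that level was 76.1%, 68.6% and 71.2% in these cultivars. In median size, WRC31 and WRC42 exceeded the other 9 at both the higher and the lower genes. WRC36 did so at the lower genes only (-1.58 against -1.27). WRC28 (1.35 against 1.14) and WRC33 (1.24 against 1.17) did so at the higher genes only. At the 29 genes called lower without WRC31 its median log2 fold change was -1.78, against -1.23 in the other 9, and at the 25 called lower without WRC42 that of WRC42 was -2.03, against -1.23.

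WRC02 followed least at the higher genes. At the 41 genes called higher without it, 19 were higher in WRC02 and the median log2 fold change was -0.08, against 1.22 in the other 9. At the 40 called lower, 33 were lower, with a median of -0.63 against -1.27, and there WRC37 (33 of 45, median -0.28) and WRC28 (33 of 47, median -0.55) followed less. Over all genes with a mean of at least 5 CPM, 50.3% had the same direction in WRC02 as in the other 9, and 52.2% in WRC35, the lowest shares of the 10. The mean level of the 41 genes was 3.88, 1.18 and 2.94 log2 CPM in its control libraries and 2.67 and 1.69 in its 2 drought libraries, so its control libraries differed among themselves by more than the treatments did. WRC35, also with 5 libraries, was close behind, with 22 of 34 higher genes in the same direction and a median of 0.21 against 1.26. Without WRC02 the pooled comparison called 228 higher and 197 lower genes, against 141 and 238 with it.

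**Figure D5:**
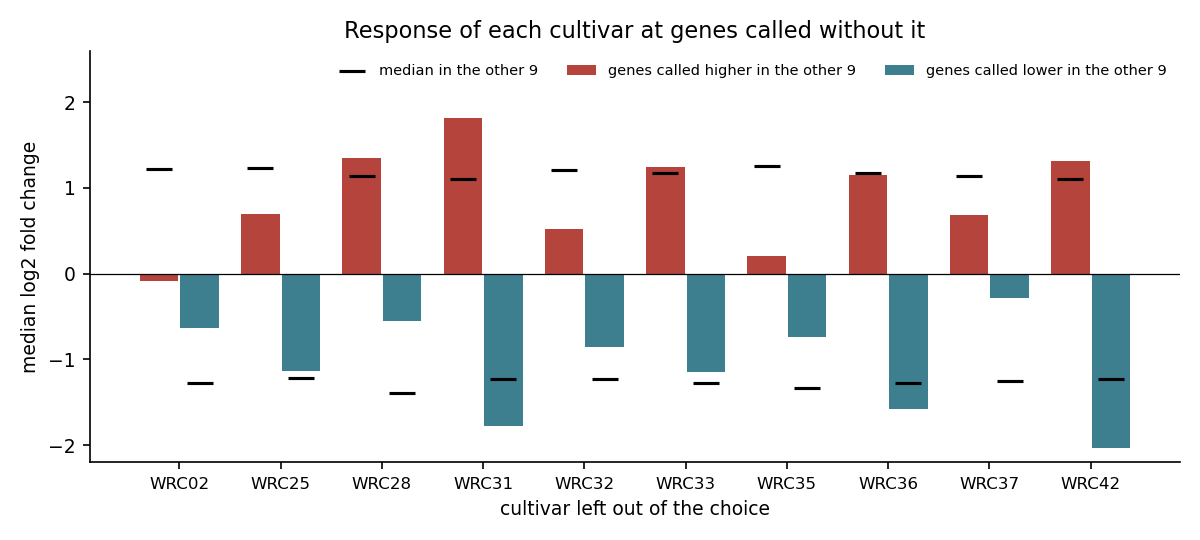
Median log2 fold change of each left-out cultivar (x axis) at the genes called higher (red bars) and lower (blue bars) in the other 9 cultivars, outside the runs and with a mean of at least 5 CPM. Black dashes give the median of the same genes in the other 9, where they were chosen. The red bar of WRC02 is at -0.08, that of WRC35 at 0.21 and that of WRC28 at 1.35. WRC31 and WRC42 reach 1.81 and 1.32 among the higher and -1.78 and -2.03 among the lower genes.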

How the data were processed

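The authors deposited raw read counts for 55986 gene models in 239 libraries. The submitters' processing notes name STAR, featureCounts 2.0.0 and the build IRGSP-1.0. The annotation release, the strand setting and the treatment of reads with several positions are not given in the sources used here. Each column was matched to its sample through the library name.

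From these counts, libraries of the 10 cultivars were fitted with edgeR 4.0.16 in R 4.3.3 (limma 3.58.1): filterByExpr with a minimum count of 10 per cultivar and treatment, TMM scaling, quasi-likelihood tests with a trended dispersion, Benjamini-Hochberg adjustment over all tested genes, an adjusted p of 0.05 and a fold of at least 2. The procedure was tested on simulated data. CPM are counts relative to the TMM-scaled library size, and log2 CPM in the score used a prior count of 2. Single cultivars and the difference among them were tested with each cultivar's treatments as separate means. The 10 were compared with 29 others on sums per cultivar. WRC09, whose control and drought plants differ in cultivar-specific genes, and 2 libraries of WRC16 were left out there, as were libraries under 1 M reads. The labels name no separate cultures or dates. DESeq2 1.42.0 served as an alternative.

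The members, lists and tests were chosen with earlier results of these data known. The reference table used here held 1 identifier of the counted form, so the gene lists matched 0 genes, no sequence is shown, and named identifiers were limited to at most 2 higher and 2 lower for a comparison, by the largest log2 fold change at a mean of at least 5 CPM (1 and 1 in a single cultivar, and the 2 with the lowest p for the difference among the 10), over the 10 cultivars also with the same direction in 9 of 10.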

Additional observations from a re-analysis of the deposited data

Results flagged for a closer look

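The log2 fold change of LOC_Os04g16745 in WRC32 was -8.12, far from those of the other 9 cultivars. The next lowest was -3.82 in WRC33, and the median of the 10 was -2.71. The gap to the nearest cultivar was 0.50 of the whole range, above the critical value of 0.47 of Dixon's test. Its 3 drought libraries held 0.351, 0.931 and 0.843 CPM and its control libraries 118.7, 319.8 and 118.4 CPM. The identifier lies in the run on chromosome 4, and the summed level of all runs was as low in the same 3 libraries, from 82.6 to 113.7 CPM. It was the only case among 10 quantities examined in this way, and chance flags each of them at a rate of about 1 in 20.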

How the results depend on the processing

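The 379 genes called over the 10 cultivars (1.53% of those tested) became 0.543% to 1.35% (140 to 347 genes) when the libraries of 1 replicate number were left out, and 0.991% to 1.72% (242 to 425) when 1 cultivar was left out. The share was 0.826% on sums per cultivar (181 genes), 0.796% among genes with a mean of at least 5 CPM alone, 1.04% with the low-count filter set by treatment alone (207) and 0.817% with the level of the runs as a covariate (202). It was 14% without the fold minimum, and 0.0432% and 0% in libraries numbered 1 and 2 alone. RLE size factors (376 genes), no filter on low counts (427), DESeq2 (350), all 40 cultivars fitted together (335) and the 3 left-out libraries kept in (389) changed the number by less than 1.5 times, as did leaving out WRC32 drought replicate 2 (296), WRC37 drought replicate 2 (474, 1.91%) or WRC02 control replicate 1 (417).

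The mean number of calls per single cultivar, 1.4, became 0 to 173.6 without 1 replicate number, 17.8 with no filter on low counts, 16.7 with the 3 left-out libraries kept in, 10.1 with each cultivar fitted alone and 138.4 with DESeq2 fitted alone. It became 2.2, 16.2 and 0.5 without WRC32 drought replicate 2, WRC37 drought replicate 2 and WRC02 control replicate 1. The cause was not tested. The difference among the 10 stayed at 0 genes except with no filter on low counts (12 genes) and without replicates numbered 2 (0 to 190 genes over the 3 numbers). The difference from the 29 others stayed at 0 in all 9 alternatives, with 841 to 2196 genes at an unadjusted p below 0.05. The score difference of 0.82 was 0.81 to 0.93 in 8 alternatives.

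The labels do not say that same-numbered control and drought libraries belong together, and the data left it mixed: of 27 pairs, 17 had a correlation of deviations above 0.1 and 15 correlated best with their own number, with all 3 pairs above 0.1 in 4 of 7 cultivars that had 3 and values from -0.47 to 0.54. They were therefore not taken as pairs. With replicate number as a block 363 genes were called over the 10 cultivars (1.46%), 1.6 on average per single cultivar and 0 for the difference among the 10. With a replicate block for each cultivar's pairs, 392 were called (1.58%), 93 higher and 299 lower. LOC_Os02g53130 and LOC_Os09g12290 kept their call in 30 of 31 alternatives and lost it in libraries numbered 2 alone, LOC_Os04g59200 kept it in 27 of 31 and LOC_Os01g47370 in 24 of 31.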

Other observations

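The share of all assigned reads that fell on the 97 identifiers in runs was highest in WRC42 control replicate 2, at 1.44%, and lowest in WRC25 control replicate 2, at 0.00829%, both from irrigated plants.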
